A study of Rattus norvegicus with 4 samples.

Results

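Secreted transport proteins and protease inhibitors of the Sertoli cell were followed in the testis of rats that had received an antibody against follicle-stimulating hormone (FSH). The 6 genes were picked by name: Shbg, Tf, Cp and Clu, which encode carriers and a chaperone, and the protease inhibitors Serpina5 and A2m. They account for 15 of the 8799 probe sets on the array, 1 each for Shbg, Clu and Serpina5, 3 each for Tf and Cp and 6 for A2m. A probe set is a group of short array probes that together give 1 intensity for a transcript. None of the 3 Tf probe sets pairs with Tf alone, since the annotation gives each of them to both Srprb and Tf, which lie next to each other in the RefSeq gene table.

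The 4 arrays were Affymetrix rat U34 arrays of set A, 1 per RNA sample of total testis RNA from male Sprague Dawley rats, an outbred strain. In 2 samples the animals had received a sheep antibody against rat FSH for 4 days, and in the other 2 samples a control sheep immunoglobulin (IgG) for the same time. The labels disagree on age, with day 14 in the series design as the start, days 18 and 22 in the treatment protocol as start and collection, and day 18 in the sample descriptions. FSH antibody replicate 2 is titled as postnatal day 4, so its group rests on its source name and treatment protocol, and each tested member's change without it is given below. The protocol speaks of pools of about 20 ovaries per RNA sample, while each source name gives the testis of 1 numbered rat. How many animals a sample stands for is not settled, and nothing in the labels states that the samples came from separate litters, so p-values measure only the spread between these RNA samples. An antibody given to the whole animal can act on other tissues too, and in whole testis fewer cells of a type and less RNA per cell cannot be told apart.

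Sertoli cells line the seminiferous tubules and nurse the germ cells, and FSH acts on them through a receptor that raises cyclic AMP. Because tight junctions between them keep blood plasma from the later germ cells, Sertoli cells make their own versions of plasma carriers. Androgen-binding protein, transferrin and ceruloplasmin carry steroid, iron and copper, clusterin is a major secreted glycoprotein, and protease inhibitors hold in check the proteases that are released as germ cells move. Secretion of androgen-binding protein and transferrin is known to be raised by FSH in cultured Sertoli cells.

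Promoter sequence was taken from RefSeq for the 4 of the 6 members that the promoter table holds (Shbg, Tf, Cp and Serpina5). The 250 bases before the annotated start are shown for Shbg and Serpina5, the members with lower intensities after the antibody for which 1 gene symbol and 1 probe set leave no disagreement between probe sets. Capitals mark matches to an E-box (CANNTG) or a GATA site (GATAA) on either strand, the only searched motifs that these windows hold.

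Shbg, GRCr8, chr10:54834902-54835151, minus strand: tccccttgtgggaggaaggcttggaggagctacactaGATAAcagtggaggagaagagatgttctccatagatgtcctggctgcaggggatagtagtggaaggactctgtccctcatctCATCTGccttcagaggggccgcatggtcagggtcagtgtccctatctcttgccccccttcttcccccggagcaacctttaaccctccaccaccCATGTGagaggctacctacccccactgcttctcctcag

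Serpina5, GRCr8, chr6:128787831-128788080, plus strand: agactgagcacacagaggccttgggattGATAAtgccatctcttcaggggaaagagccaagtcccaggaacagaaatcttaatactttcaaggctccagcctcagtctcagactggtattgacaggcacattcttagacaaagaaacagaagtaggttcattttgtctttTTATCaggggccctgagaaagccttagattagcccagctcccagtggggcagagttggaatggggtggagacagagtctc

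The cyclic AMP response element (TGACGTCA), the sequence bound by CREB, was found in none of the 4 members' windows and in 1.59% of the 33469 windows of the same length in the table. Its shorter form (TGACG, which the full element contains) was likewise in none of the 4, against 18.2% of all windows. An E-box was found at 2 places before Shbg and at 1 before Tf (65.5% of all windows), and a GATA site at 1 place before Shbg and at 2 before Serpina5 (23.5%). The nuclear receptor motif AGGTCA was found at 1 place before Tf (14.1%). These are matches of letters in a window and say nothing of whether a factor binds there or elsewhere.

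Intensities are on the linear scale as deposited. Each log2 change is the antibody mean less the control IgG mean of log2(intensity + 16), with SE from limma and n = 2 arrays per group, which limits the precision of every value. This scale understates the change of dim probe sets. Of the 15 probe sets, 11 were bright enough to be tested, with at least 1 for each gene, among 5252 tested in all. None of the 11 passed a Benjamini-Hochberg adjusted p of 0.05 by limma, against 0.267% of all tested probe sets (14 of 5252), while 4 had an unadjusted p under 0.05, each of them lower after the antibody, as were 4.13% of all tested ones. Over all probe sets 0 passed without control replicate 1 or without control replicate 2, 154 without antibody replicate 1 and 93 without antibody replicate 2. In 7 of the 11 both antibody arrays lay below both control arrays, as in 15.5% of all tested probe sets, and in 0 of the 11 both lay above, against 21.9% overall. Probe sets of 1 gene are not independent of each other, and 3 of these 7 are the Tf probe sets. A2m also has more than 1 among them (M23566exon_s_at and rc_AA900582_at). For Tf D38380_at and A2m rc_AA900582_at the nearest arrays of the groups were only 0.014 and 0.013 apart on the log2 scale. The members were chosen with earlier results of these data known, so these counts are a description only. The median log2 change was −0.30 over the 11 and 0.03 over all tested probe sets.

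**Figure D1:**
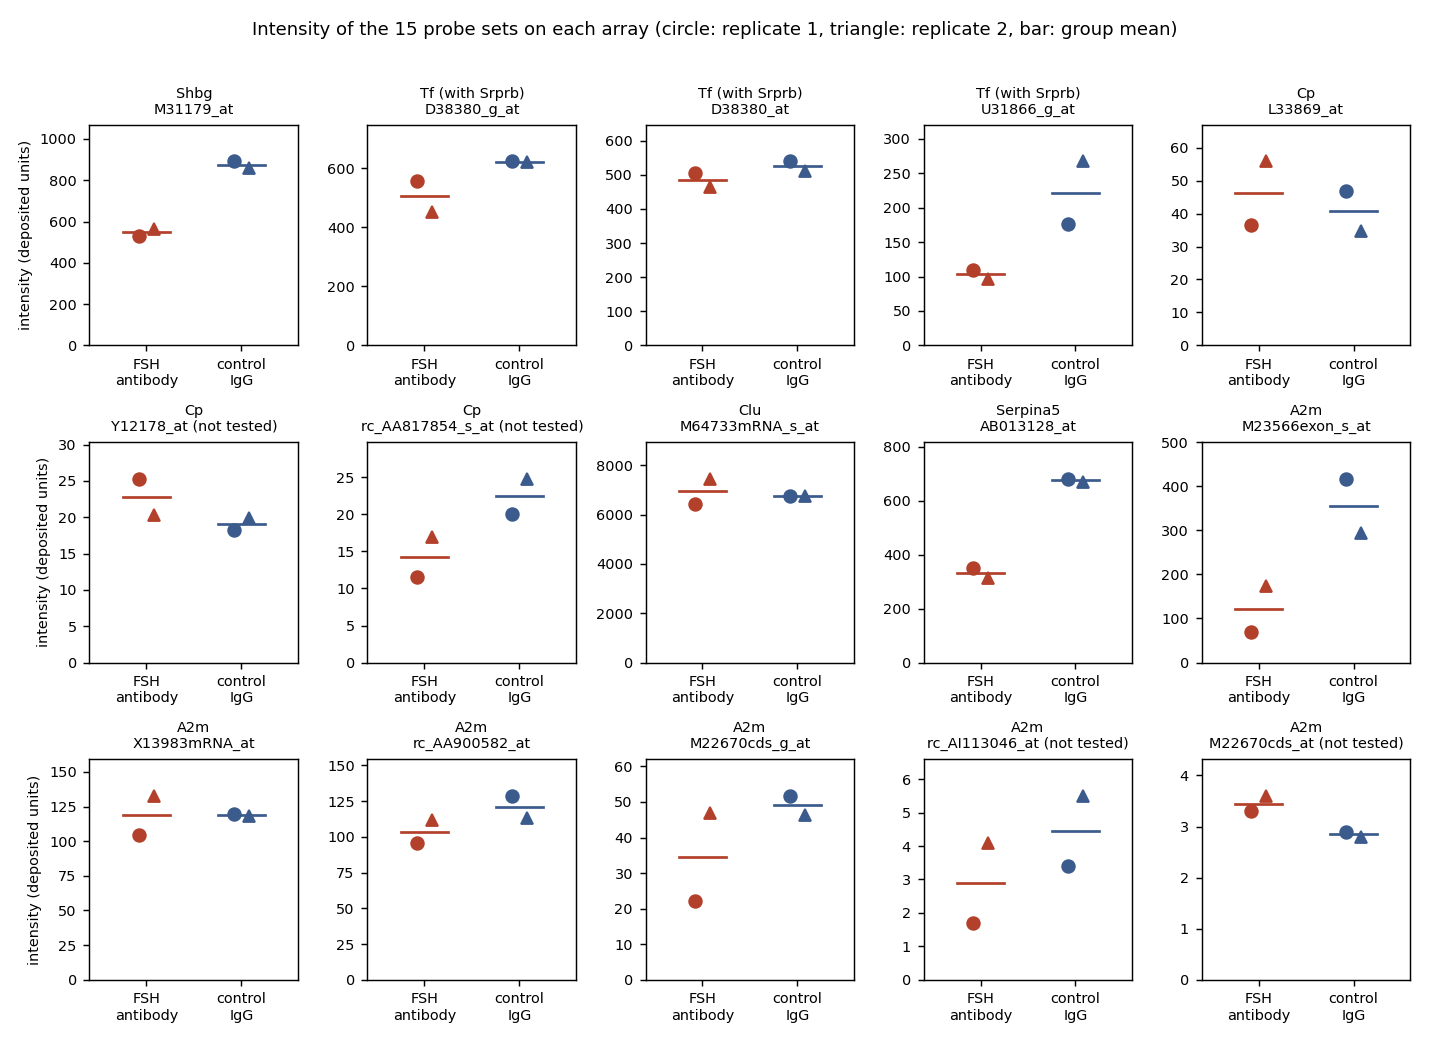
Linear intensity (y axis, from 0, deposited units) of each of the 15 probe sets on the 2 FSH antibody arrays (left) and the 2 control IgG arrays (right). Circles are replicate 1, triangles replicate 2 and bars the group means; for Shbg (M31179_at), Serpina5 (AB013128_at), A2m (M23566exon_s_at) and Tf (U31866_g_at) the antibody arrays lie well below the control arrays, while for Clu the groups overlap.

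Among the carriers, Shbg encodes androgen-binding protein, which holds testosterone and dihydrotestosterone in the tubule fluid and travels with it to the epididymis. Its probe set (M31179_at) had an intensity of 530.5 and 563.9 on the antibody arrays, against 890.7 and 857.2 on the control arrays. The arrays of each treatment lay close together and the groups did not overlap. Single antibody arrays stood at 0.596 to 0.658 of single control arrays. The group means were 547 ± 23.6 after the antibody and 874 ± 23.7 with control IgG (SD, n = 2 each). The log2 change was −0.66 ± 0.16 (95% interval −1.02 to −0.30), which did not pass (limma, adjusted p = 0.217). It was −0.70 without antibody replicate 2.

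Tf encodes transferrin, the carrier of ferric iron that Sertoli cells pass to germ cells. Its 3 probe sets were all lower after the antibody but differed in the size of the change. The brightest (D38380_g_at) had an intensity of 558.1 and 452.4 on the antibody arrays, against 623.2 and 621.5 on the control arrays. A second one from the same source sequence (D38380_at) had 505.6 and 463.2, against 539.1 and 510.7. Both had antibody arrays below control arrays, but for D38380_at the gap between the nearest arrays was only 0.014 on the log2 scale. The log2 changes were −0.30 ± 0.17 (95% interval −0.69 to 0.09, adjusted p = 0.714 by limma) for D38380_g_at and −0.11 ± 0.16 (−0.48 to 0.26, adjusted p = 0.904) for D38380_at. Both sizes hung on single arrays. D38380_g_at was at −0.45 without antibody replicate 1 and −0.15 without antibody replicate 2, and D38380_at at −0.17, −0.052 and −0.075 without antibody replicate 1, antibody replicate 2 and control replicate 1.

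The third Tf probe set (U31866_g_at) had an intensity of 109.3 and 97.2 on the antibody arrays, against 176.4 and 267.3 on the control arrays. The antibody arrays agreed, whereas the control arrays differed by 0.56 on the log2 scale. The log2 change was −0.97 ± 0.21 (95% interval −1.45 to −0.49), with an adjusted p of 0.150 by limma, and −0.90 without antibody replicate 2. With 1 residual degree of freedom it passed when either antibody array was left out (0.00248 without replicate 1, 0.0187 without replicate 2). It did not pass without control replicate 1 (change −1.25, adjusted p = 0.355) or control replicate 2 (−0.69, 0.795). Its identity is uncertain: another probe set from the same source sequence (U31866_at) is annotated as Bmp2k, a kinase gene, and had 18.2 and 20.7 on the antibody arrays, against 15.5 and 19.5 on the control arrays.

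Cp encodes ceruloplasmin, a copper-carrying ferroxidase that readies iron for loading onto transferrin. Its 3 probe sets were dim. The brightest (L33869_at) had an intensity of 36.6 and 55.8 on the antibody arrays, against 46.9 and 34.8 on the control arrays, so the groups overlapped. The log2 change was 0.12 ± 0.23 (95% interval −0.39 to 0.63, adjusted p = 0.932 by limma), an interval that leaves room for changes in either direction. It was −0.10 without antibody replicate 2, 0.35 without antibody replicate 1, 0.28 without control replicate 1, and −0.034 with control replicate 2 left out. The 2 others were too dim to be tested and pointed opposite ways: Y12178_at had 25.3 and 20.3 on the antibody arrays, against 18.2 and 19.9 on the control arrays, and rc_AA817854_s_at had 11.5 and 16.9, against 20.0 and 24.8.

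Clu encodes clusterin, also called sulfated glycoprotein 2, an extracellular chaperone and one of the most abundant proteins that Sertoli cells secrete. Its probe set (M64733mRNA_s_at) was among the brightest of the array, with an intensity of 6439.6 and 7459.2 on the antibody arrays, against 6776.2 and 6770.0 on the control arrays. The antibody arrays enclosed the control arrays. The log2 change was 0.03 ± 0.15 (adjusted p = 0.973 by limma), and its 95% interval of −0.30 to 0.37 does not hold a change as large as that measured for Shbg. Leaving out antibody replicate 2 made it −0.073, and leaving out antibody replicate 1 made it 0.14. Whether a spot this bright was near saturation cannot be told from these values.

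**Figure D2:**
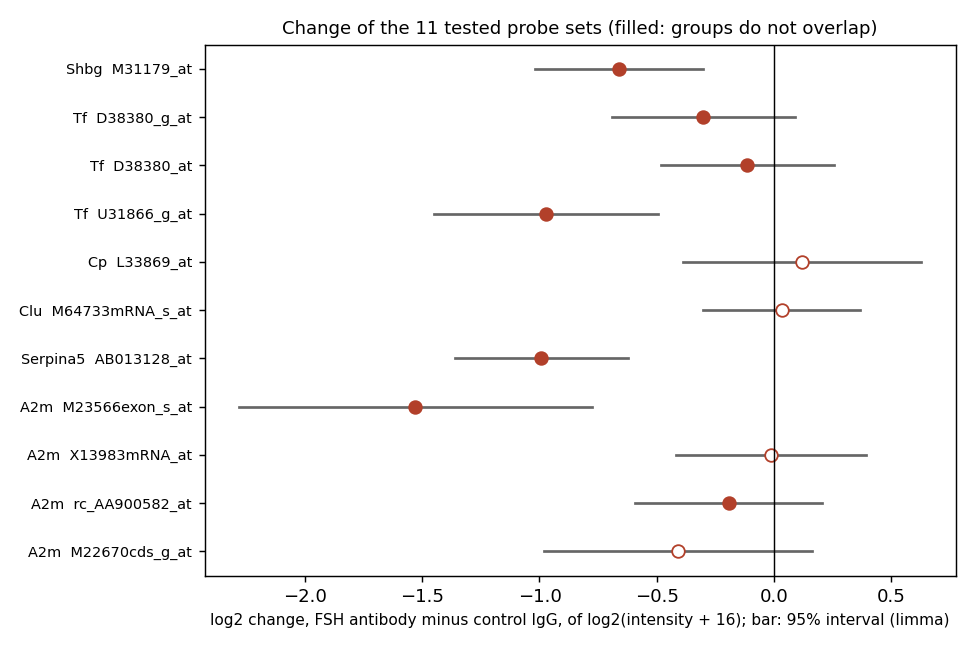
Log2 change (x axis, FSH antibody minus control IgG) of the 11 tested probe sets with the 95% interval from limma; filled points mark groups that do not overlap. The intervals of Shbg, Serpina5, Tf (U31866_g_at) and A2m (M23566exon_s_at) lie below 0 before adjustment for the number of probe sets, and those of the other 7 include 0.

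Of the protease inhibitors, Serpina5 encodes protein C inhibitor, a serpin that blocks activated protein C, plasminogen activators and the sperm protease acrosin, and male mice without it are infertile. Its probe set (AB013128_at) had an intensity of 350.9 and 314.6 on the antibody arrays, against 682.0 and 671.3 on the control arrays. The groups were far apart compared with the spread within them, and single antibody arrays stood at 0.461 to 0.523 of single control arrays. The means were 333 ± 25.7 after the antibody and 677 ± 7.57 with control IgG (SD, n = 2 each). The log2 change was −0.99 ± 0.16 (95% interval −1.36 to −0.62). Its unadjusted p of 0.000167 was the 15th smallest of the 5252, directly after the 14 that passed, and its adjusted p by limma was 0.0541. Over the alternative settings that adjusted p ranged from 0.00168 to 0.633, and the change from −1.07 to −0.90, with −0.92 without antibody replicate 2. It passed when antibody replicate 1 (0.00168) or antibody replicate 2 (0.0148) was left out, each a fit with 1 residual degree of freedom, and did not without control replicate 1 (0.387) or 2 (0.633).

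A2m encodes alpha-2-macroglobulin, a large protein that traps proteases of many classes and also binds growth factors. Its 6 probe sets did not move together. The brightest (M23566exon_s_at) had an intensity of 68.6 and 174.6 on the antibody arrays, against 417.0 and 294.4 on the control arrays. The groups did not overlap, but the antibody arrays themselves differed by 1.17 on the log2 scale. The log2 change was −1.53 ± 0.34 (95% interval −2.28 to −0.78, adjusted p = 0.150 by limma). Leaving out antibody replicate 2 made it −2.12 (adjusted p = 2.64e-14, from a fit with 1 residual degree of freedom), and leaving out antibody replicate 1 made it −0.94 (adjusted p = 0.00889), so its size rests largely on which antibody array is used. It did not pass without either control array (adjusted p = 0.634 without replicate 1, 0.747 without replicate 2).

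The next A2m probe set (X13983mRNA_at) had 104.6 and 132.7 on the antibody arrays, against 119.4 and 118.4 on the control arrays, and these overlapped (−0.01 ± 0.18, 95% interval −0.42 to 0.39, adjusted p = 0.989 by limma). Its change became 0.14 with antibody replicate 1 left out and −0.16 with antibody replicate 2 left out. The probe set rc_AA900582_at had 95.7 and 111.7, against 128.7 and 112.9 with control IgG (−0.19 ± 0.18, adjusted p = 0.849), with a gap of 0.013 between the nearest arrays on the log2 scale. Its change was −0.097 without antibody replicate 1, −0.29 without antibody replicate 2 and −0.11 without control replicate 1. M22670cds_g_at had 22.1 and 46.8, against 51.7 and 46.3 (−0.41 ± 0.25, adjusted p = 0.745), and overlapped through antibody replicate 2. Without antibody replicate 1 it was at −0.048, and without antibody replicate 2 at −0.77 (adjusted p = 0.190), so that 1 array sets its size. The 2 remaining ones were too dim to be tested, with rc_AI113046_at at 1.7 and 4.1, against 3.4 and 5.5, and M22670cds_at at 3.3 and 3.6, against 2.9 and 2.8. A2m belongs to a family of related genes whose transcripts could cross-hybridise. Family members Mug1 and Pzp, named after their values were seen, were below 16 on each of the 4 arrays. Mug2, A1i3 and A1m, also listed, had no probe set with a symbol of their own. The family was therefore not covered in full, and cross-hybridisation was not tested.

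**Figure D3:**
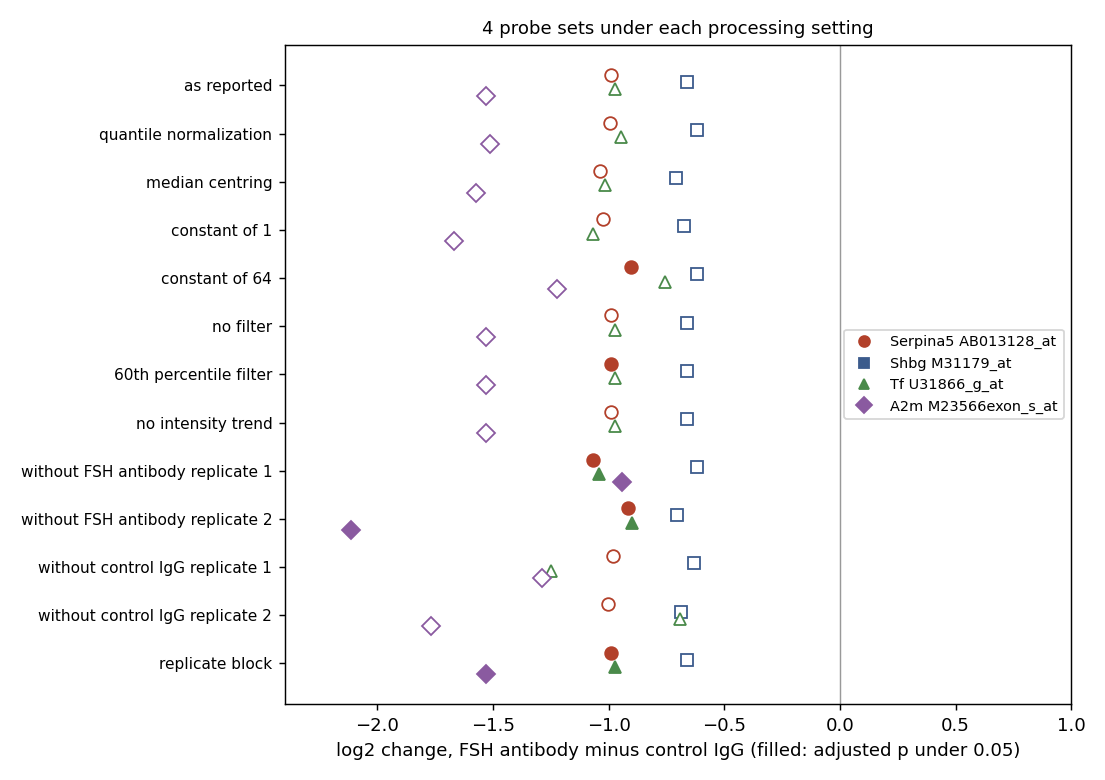
Log2 change (x axis, FSH antibody minus control IgG) of Serpina5, Shbg, Tf (U31866_g_at) and A2m (M23566exon_s_at) under each processing setting (rows); filled symbols mark an adjusted p under 0.05. Serpina5 stays between −1.07 and −0.90 and Shbg between −0.71 and −0.62, while A2m ranges from −2.12 to −0.94.

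Transferrin and ceruloplasmin work with a set of receptors, transporters, stores and regulators of iron and copper. Of 21 listed, 11 were on the array with a symbol of their own and 9 were tested. None of the 9 passed (limma over all probe sets), beside 0.284% of the 3169 tested genes. Lower values with an unadjusted p under 0.05 were found for 3 of the 9, beside 3.88% of all tested genes. Higher values with such a p were found for 1, beside 3.98%. The list's median log2 change was −0.38, beside 0.03 over all tested genes, and ranged from −0.47 to −0.21 over the alternative settings. Values were lower on both antibody arrays for 5 of the 9, beside 15.1% of all tested genes, and higher on both for 3, beside 22.4%.

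Tfrc, the receptor that takes up iron-loaded transferrin, had 104.6 and 138.6 on the antibody arrays, against 215.6 and 152.2 on the control arrays (−0.53 ± 0.21, adjusted p = 0.580 by limma). The groups did not overlap, but the change shrank to −0.30 when control replicate 1 was left out and to −0.35 when antibody replicate 1 was. It grew to −0.71 without antibody replicate 2 and to −0.76 without control replicate 2. Slc11a2 encodes the transporter that moves that iron out of the endosome. Its brightest probe set (AF008439_g_at) had 356.0 and 368.6, against 566.9 and 485.4 with control IgG (−0.52 ± 0.17, adjusted p = 0.489), and its other probe sets gave −0.72 ± 0.19 and −0.64 ± 0.20, again with no overlap. Ireb2, an iron sensor that binds and stabilises the Tfrc transcript when iron is scarce, had 97.1 and 105.8, against 160.6 and 134.4 (−0.47 ± 0.18, adjusted p = 0.567). Those with higher values were named after they were seen. Among them was Aco1, the homologue of Ireb2, with 239.3 and 201.9 against 184.4 and 157.9 (0.34 ± 0.18, adjusted p = 0.683 by limma). The plasma scavengers Hp and Hpx, which bind haemoglobin and heme, were dim. Hp had 62.4 and 49.1, against 38.9 and 36.7 (0.41 ± 0.20, adjusted p = 0.634). Hpx had 38.4 and 41.3 on the antibody arrays, against 20.0 and 28.0 on the control arrays (0.49 ± 0.21, adjusted p = 0.610). Hpx was the 1 higher gene with an unadjusted p under 0.05.

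Among protease inhibitors other than Serpina5 and A2m, 29 of 51 listed were on the array and 17 were tested. None passed, beside 0.284% of all tested genes, and the median change was 0.07. An unadjusted p under 0.05 was found for 1, beside 7.86% of all tested genes. That was Timp2, an inhibitor of matrix metalloproteinases, with 683.1 and 818.7 on the antibody arrays, against 943.8 and 1097.2 on the control arrays (−0.44 ± 0.18, adjusted p = 0.580 by limma). Wfdc1, a secreted protein with a protease inhibitor fold, gave −0.33 ± 0.18 (adjusted p = 0.683), and −0.19 without control replicate 2. Cst3, the cysteine protease inhibitor cystatin C, gave 0.21 ± 0.16 by the brighter of its probe sets and −0.02 ± 0.17 by the dimmer. Serpine2, a serpin that blocks plasminogen activators and thrombin, was too dim to be tested, with 15.8 and 16.5 on the antibody arrays, against 12.0 and 16.8 on the control arrays.

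Of 31 listed proteases, 24 were on the array and 12 were tested. None passed, beside 0.284% of all tested genes, and the median change was 0.003. Ctsl, the cysteine protease cathepsin L that Sertoli cells secrete, had the smallest p, with 996.7 and 1067.7 on the antibody arrays, against 663.9 and 722.1 on the control arrays (0.56 ± 0.16, adjusted p = 0.353 by limma). Among known targets of Serpina5, Plau, the urokinase plasminogen activator, gave −0.15 ± 0.21 (95% interval −0.61 to 0.32) with overlapping groups, and Acr, the sperm protease acrosin, −0.28 ± 0.22, also overlapping. Leaving out control replicate 1 put Acr at −0.51 and Plau at 0.094, and leaving out control replicate 2 put them at −0.042 and −0.38. Plat, the tissue plasminogen activator, was too dim to be tested, with 21.0 and 19.7 on the antibody arrays, against 23.2 and 27.7 on the control arrays. Mmp2, a gelatinase, gave 0.22 ± 0.18 by the brighter of its probe sets and 0.01 ± 0.24 by the dimmer, with overlapping groups for the dimmer.

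Of 14 receptors, 8 were on the array and 3 were tested. Lrpap1, the chaperone of the receptors that clear A2m complexes, had 124.3 and 124.2 on the antibody arrays, against 149.6 and 148.8 on the control arrays (−0.24 ± 0.17, adjusted p = 0.790 by limma). Its other probe sets gave −0.13, −0.29 and 0.18. Thbd, the cofactor for protein C activation, gave −0.02 ± 0.17, and Tgfbr3, a co-receptor for TGF-beta and inhibin, 0.20 ± 0.22 (0.063 to 0.33 with 1 array left out). Lrp2, the endocytic receptor megalin, was too dim to be tested, at most 20.7 on any array (L34049_g_at).

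Among 26 other carriers, 24 were on the array and 15 were tested. Of these, 1 passed, beside 0.284% of all tested genes. It was Igfbp3, the main carrier of insulin-like growth factors (limma, adjusted p = 0.0365 on its brightest probe set, M31837_at). It rose, with 400.2 and 325.3 on the antibody arrays, against 141.2 and 91.4 on the control arrays (1.54 ± 0.22), and this list's choice of it was made with that result known. Without control replicate 1 its adjusted p was 0.263, and 0.633 without control replicate 2. Rbp4, the plasma carrier of retinol, gave 0.54 ± 0.20 by M10934_s_at and 0.30 ± 0.20 by K03045cds_s_at (adjusted p = 0.559 and 0.775). Apoa1, the main protein of high-density lipoprotein, gave 0.37 ± 0.21 (adjusted p = 0.714). The list's median was 0.04, and −0.14 without antibody replicate 1.

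**Figure D4:**
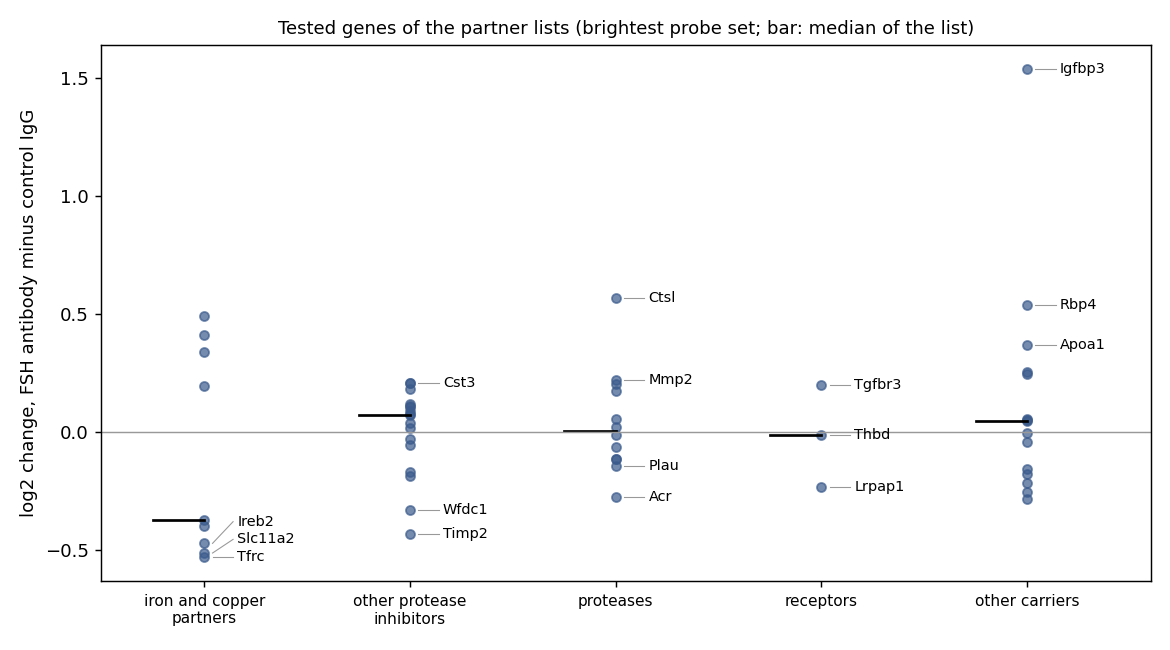
Log2 change (y axis, FSH antibody minus control IgG) of each tested gene in the 5 partner lists, using its brightest probe set, with the list median as a bar. The iron and copper list has its median at −0.38 and splits into 5 lower and 4 higher genes, while the medians of the other lists lie near 0.

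Marker genes checked the labelled tissue and the other cell types a testis sample can hold. Sertoli cell markers were present, with 14 of 17 on the array and none below 16 on each of the 4 arrays. Their summed intensity was 5481.4 and 5047.6 on the antibody arrays, against 5726.8 and 4972.9 on the control arrays, so the groups overlapped, although 12 tested markers did not move alike. Testin, a secreted Sertoli protein, gave 1.56 (adjusted p = 0.0152 by limma; 0.318 and 0.429 without control replicate 1 or 2), and Inha, the inhibin alpha subunit, had 804.3 and 682.0 on the antibody arrays, against 1588.4 and 1224.2 on the control arrays (−0.90 ± 0.19, adjusted p = 0.122 by limma). The dimmer Inha probe set (M32754cds_s_at) had 501.2 and 502.7, against 544.2 and 927.4 (−0.49 ± 0.24, adjusted p = 0.634 by limma). Amh was higher on both antibody arrays (0.52 ± 0.16, adjusted p = 0.437). Wt1, a Sertoli transcription factor, gave −0.06 and Vim, the filament protein vimentin, −0.10. Fshr, the FSH receptor, gave 0.30 ± 0.22 with overlapping groups (L02842_g_at), and Gata4 gave 0.14. Of the 12 tested markers, 7 had positive and 5 negative changes, with a median of 0.13. Higher on both antibody arrays were 3, beside 22.4% of all tested genes, and lower on both were 2, beside 15.1%.

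Leydig cell markers (8 of 11 on the array, none below 16 throughout) summed to 2059.3 and 2242.2 on the antibody arrays, against 2560.2 and 2613.4 on the control arrays. Macrophage markers (11 of 14, with Fcgr2b below 16 throughout) summed to 607.7 and 772.0, against 505.4 and 559.4 with control IgG. Endothelial markers (6 of 8, none below 16 throughout) summed to 291.1 and 353.6, against 223.7 and 222.8 in the control group. These 3 sums did not overlap between the groups, although the Leydig and macrophage genes did not all go the same way. Lower on both antibody arrays were 2 of 8 tested Leydig, 1 of 8 macrophage and 0 of 4 endothelial genes, beside 15.1% of all tested genes. Higher on both were 3, 4 and 3 of them, beside 22.4%. The part of these sums in the values of Shbg, Serpina5, Tf and A2m was not tested. Among the Leydig markers, Star, which carries cholesterol into mitochondria for steroid synthesis, fell, with 25.5 and 12.8 on the antibody arrays, against 75.9 and 86.2 on the control arrays (−1.49 ± 0.23, adjusted p = 0.0418 by limma). Fdx1 was lower too, with 286.4 and 243.1 on the antibody arrays, against 456.8 and 582.5 on the control arrays (−0.93 ± 0.19, adjusted p = 0.116 by limma). Its dimmer probe set gave −0.64 ± 0.22, also without overlap. Cyp11a1, by contrast, was higher, with 185.1 and 121.3, against 104.6 and 95.1 (0.52 ± 0.21, adjusted p = 0.580 by limma). Hsd11b1 (0.42 ± 0.23) and Hsd17b3 (0.22 ± 0.21) were also higher on both antibody arrays. Germ cell markers (16 of 18, with H1f6, Odf1 and Tnp2 below 16 throughout) summed to 2167.6 and 1495.6 on the antibody arrays, against 1636.5 and 2814.8 on the control arrays. Sums of erythroid (4 of 7), peritubular myoid (8 of 8) and epididymal markers (5 of 8, with Gpx5 below 16 throughout) overlapped too, at 1997.9 and 2287.4 against 2160.4 and 3663.1, at 3906.8 and 2893.8 against 3399.5 and 3613.1, and at 401.7 and 438.6 against 394.2 and 447.2. A sum is carried by its brightest genes, and among the erythroid markers these were 2 globin genes. Alas2, the first enzyme of erythroid heme synthesis, fell, with 72.8 and 51.9 on the antibody arrays, against 158.4 and 218.0 on the control arrays (−1.38 ± 0.21, adjusted p = 0.0418 by limma). Neither Star nor Alas2 passed without control replicate 1 (adjusted p = 0.387 and 0.355) or control replicate 2 (0.633 for both). No other marker passed apart from Testin, and the part of these genes in the members' values was not tested. No marker was listed at 0 by its brightest probe set. Arrays of 1 treatment differed about as much as arrays of different treatments, with a median absolute log2 difference of 0.197 between the antibody arrays and 0.189 between the control arrays, against 0.173 to 0.236 across treatments.

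Genes with the most similar profile over the 4 arrays were found by the root mean square difference of centred log2 values, among 4348 tested single-symbol probe sets for Shbg, Serpina5, Clu and Cp. The profile of Serpina5 was nearest to those of Add1, a membrane skeleton protein (0.031), Gpd1, the glycerol phosphate dehydrogenase (0.055), and the mitochondrial chaperone Hspa9 on 1 probe set (0.063). Gpd1 had 47.9 and 39.3 on the antibody arrays, against 113.9 and 105.9 on the control arrays. Shbg was nearest to Asnsd1 (0.053), Nnt, the mitochondrial transhydrogenase (0.053), and Slc25a30, a mitochondrial carrier (0.063). The brightest A2m probe set had no close match, with Ptprs at 0.289, Papola at 0.358 and Smad9 at 0.377. Clu was nearest to Idh3g (0.0030), Nr1d1 (0.014) and Higd1a (0.017), Cp to Tgfbr3 (0.016), Plcb4 (0.019) and Met (0.022), and the brightest Tf probe set to Idi1 (0.016), Jag1 (0.024) and Atp4a (0.031). With 4 arrays and this many candidates, close profiles are a description only.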

How the data were processed

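The deposited values were linear intensities, 1 per probe set, with no software, background correction or scaling named in the sources used here. A mean trimmed by 2% at either end came to 125 on every array, which shows a scaling step ahead of deposit. Detection calls were not used here. Array medians were 38.8 and 40.4 (antibody) and 39.2 and 36.5 (control IgG).

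Groups came from the source names. Platform gene symbols were updated by Entrez identifier with a RefSeq table of assembly GRCr8: 7018 of 8799 probe sets have 1 symbol, 308 several and 1473 none. Probe sets were kept from the 40th percentile of mean log2(intensity + 16) over all 8799, a value of 5.30, upwards, and the 59 control probe sets were left out of the tests. They were compared with limma 3.58.1 (lmFit, eBayes with an intensity trend, R 4.3.3). Tests were two-sided, and p-values were adjusted by Benjamini-Hochberg over all 5252 at a threshold of 0.05; the same code was checked on simulated data. Lists used each gene's brightest single-symbol probe set. From each partner list the 3 genes with the smallest p, all called genes, and Tfrc, Fth1, Lrp2, Plat, Plau and Serpine2 where measured were named; all others are said to be named after their values were seen, or stand in the marker and likeness checks. The members, lists and settings were chosen with earlier results of these data known. The alternatives were quantile normalization, median centring, a constant of 1 or 64, no filter, a 60th percentile filter, no intensity trend, leaving out each array, and the replicate number as a block.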

Additional observations from a re-analysis of the deposited data

How the results depend on the processing

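Over the 12 alternatives, 8 of the 11 tested probe sets kept their direction wherever they were fitted, and Shbg was called in none. Cp (L33869_at) and A2m (M22670cds_g_at) were fitted in 11 of the 12, since the 60th percentile filter left them out. Against 0 called among the 11, 1 was called (Serpina5) with a constant of 64 (adjusted p = 0.0499 by limma) and 1 (Serpina5) with the 60th percentile filter (0.0404). Leaving out 1 array gave 0 to 3: Serpina5, Tf (U31866_g_at) and A2m (M23566exon_s_at) were called without antibody replicate 1 and without antibody replicate 2, and none without either control array. Such a fit has 1 residual degree of freedom and assumes that the lone array varies like the other group. Over all probe sets, 14 were called, against 0 with quantile normalization, 4 with median centring, 0 with no filter and 0 to 154 with 1 array left out; where 0 were called, limma still gave 420 (quantile), 702 (no filter), 366 (without control replicate 1) and 268 (without control replicate 2) at an unadjusted p under 0.05. The replicate block called 39, and 3 of the 11 (Serpina5, Tf U31866_g_at, A2m M23566exon_s_at). Over all tested probe sets the same-numbered arrays did not deviate together (correlation 0.004). Such a correlation cannot show whether some probe sets share a pairing. The median absolute log2 difference was 0.173 between the arrays numbered 1 and 0.236 between those numbered 2.

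Directions turned for small changes: Clu was −0.013 with median centring and −0.073 to 0.14 with 1 array left out, Cp (L33869_at) −0.10 to 0.35, A2m (X13983mRNA_at) −0.16 to 0.14 and Plau −0.38 to 0.094. Thbd was 0.013 with quantile normalization and −0.10 to 0.070 with 1 array left out. The median of all probe sets differed between the groups by 0.059 as deposited, 0.011 with quantile normalization and 0.013 with median centring. Igfbp3 was not called with quantile normalization (adjusted p = 0.115), median centring (0.0689), no filter (0.224) or without either control array, and Testin, Star and Alas2 were likewise not called with quantile normalization, no filter or without either control array, nor were Star and Alas2 with median centring or a constant of 1, or Alas2 with no intensity trend. The cause of these changes was not tested, except that filters change the number tested. No detection calls were used, so how far dim probe sets stood above background is unknown.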
